A study of Mus musculus with 2 samples.

Results

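The 50 genes described here are effectors of the type I interferon response. They were chosen by name as antiviral effectors, nucleic acid sensors and members of the ISG15 ubiquitin-like modifier pathway. The choice was made with earlier results of these data known. All 50 listed genes reached a mean of 10 counts over the 2 libraries, as did 14379 of the 54446 genes counted in all. The lowest mean count among them was 142, so none lay close to the threshold and none fell below it. The cells were bone marrow derived macrophages of the mouse strain C57BL/6, and their RNA was sequenced. Those of the treated group were given IL-36 gamma, an inflammatory cytokine related to interleukin-1, and the control cells received no treatment. Each group had 1 library, with 17267900 counts in genes for IL-36 gamma and 17426367 for the control. Neither the dose nor the length of treatment is stated in the labels.

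Type I interferons bind a receptor of the chains Ifnar1 and Ifnar2, which passes the signal through the kinases Jak1 and Tyk2 to a complex of transcription factors. That complex binds the interferon-stimulated response element, a short motif in the promoters of effector genes. Their products recognise foreign nucleic acid, block viral entry, translation or release, or tag proteins with ISG15. Macrophages hold many of these transcripts at a basal level without infection and raise them further on exposure to interferon.

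Most of these genes were higher in macrophages given IL-36 gamma, by modest factors. Of the 50 genes, 35 had a ratio of IL-36 gamma over control whose counting interval lay wholly above 1, against 20.2% of all genes measured. Genes with more counts have narrower intervals, and most members were well expressed. Of 3 equal groups of genes by control level per length, the highest held 36 members. There, 26 of the 36 were above 1, against 41.6% of all genes in that group. In the middle group it was 8 of 11 members, against 12.8%, and in the lowest 1 of 3, against 6.26%. An interval wholly below 1 was found for 3 members (Mx1, Ifi27 and Parp14), against 16.5% of all genes. The interval lay wholly more than 25% above 1 for 16 members, against 1.52% of all genes, and wholly below 0.8 for 0 members, against 2.53% of all genes. An interval above 2 or below 0.5 was found for 0 members, against 0.0765% and 0.0904% of all genes. The median log2 ratio of the members was 0.33, a ratio of 1.26, against 0.01 over all genes measured. Single members ran from a ratio of 0.823 for Mx1 to 1.85 for Ifi27l2a, with 42 members above 1 and 8 below it.

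Each ratio compares counts scaled to a common library size, and each interval is an exact 95% Clopper-Pearson interval that covers counting error only. With 1 library a group there was no replicate, no test was possible, and the spread between cultures was not measured. The differences below are therefore differences between these 2 libraries. In bulk RNA, fewer cells of a type and less RNA per cell cannot be told apart.

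**Figure D1:**
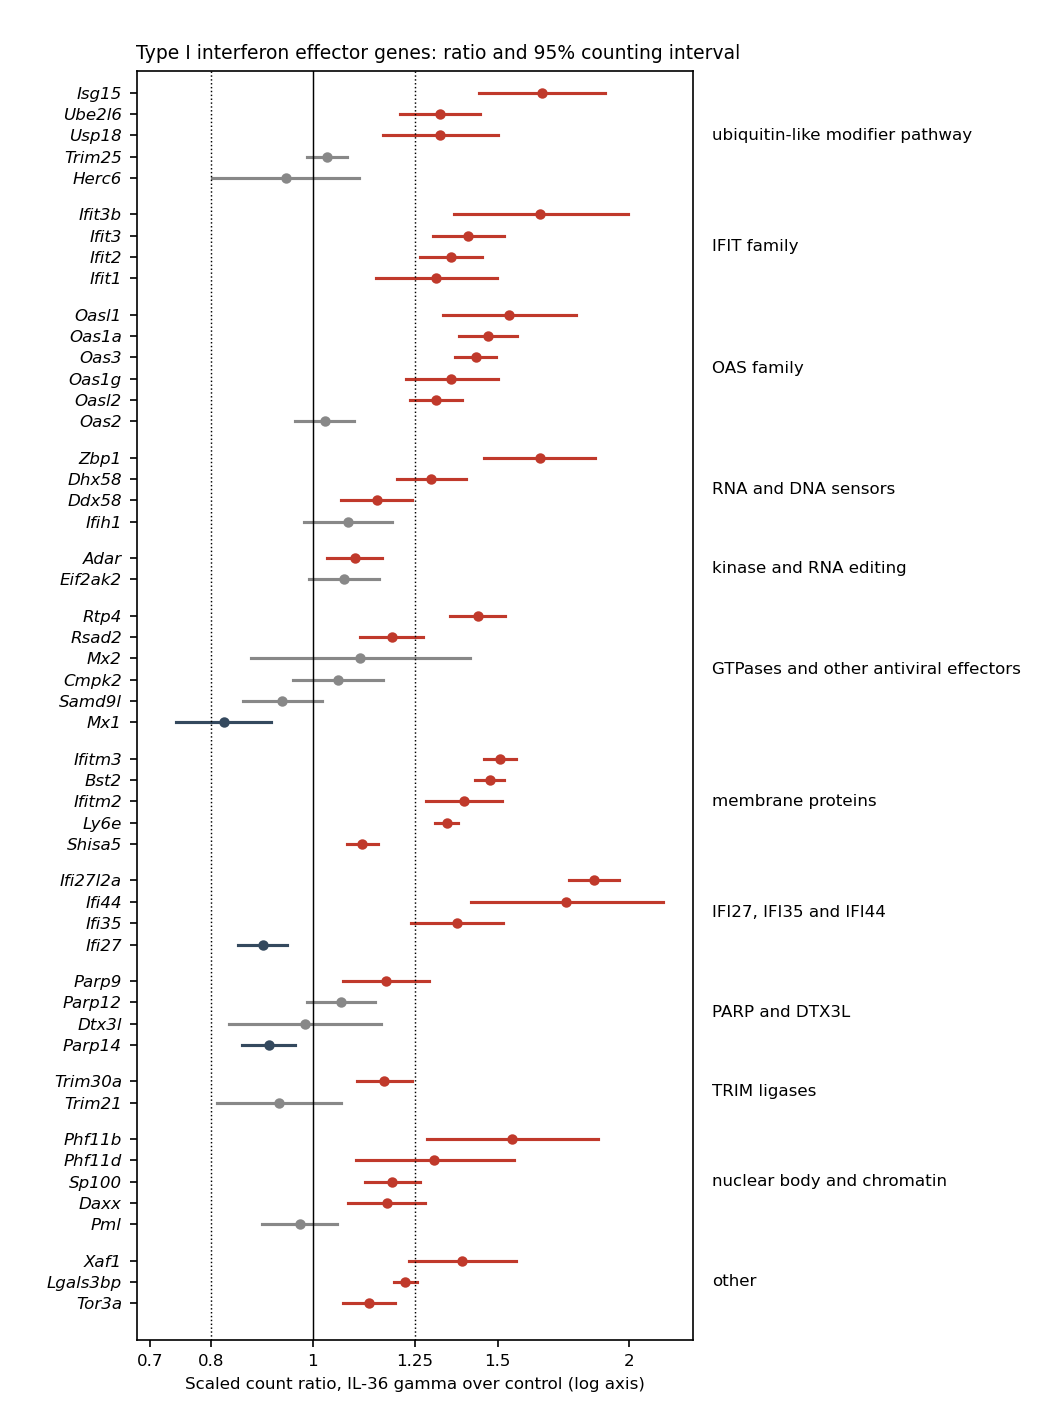
Ratio of scaled counts (log axis), IL-36 gamma over control, for the 50 genes by role, with points for the ratio and lines for the 95% counting interval. The 35 genes in red lie wholly above 1, the 3 in dark blue wholly below 1 and the 12 in grey include 1. Dotted lines mark a ratio of 0.8 and its inverse, 25% above 1.

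Per length, the transcripts of these genes spanned a wide range of levels, and the most abundant ones encode membrane and secreted proteins. Levels are given as TPM, a measure per length that sums to the same total in each library, computed from the counts and the exon lengths. The members summed to 9297 TPM in the IL-36 gamma library and 7279 TPM in the control library. Ifitm3 was the most abundant, with 1768 TPM given IL-36 gamma and 1268 TPM in the control. Bst2, Ifi27l2a, Lgals3bp and Ly6e followed in the same order in both libraries. These 5 genes held 64.8% of the members' TPM in the IL-36 gamma library and 59.9% in the control library. At the other end, Herc6 had 4.96 TPM given IL-36 gamma and 5.68 TPM in the control, and Ifi44 had 6.26 TPM given IL-36 gamma and 3.88 TPM in the control. The median member had 58.6 TPM with IL-36 gamma and 51.3 TPM in the control.

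**Figure D2:**
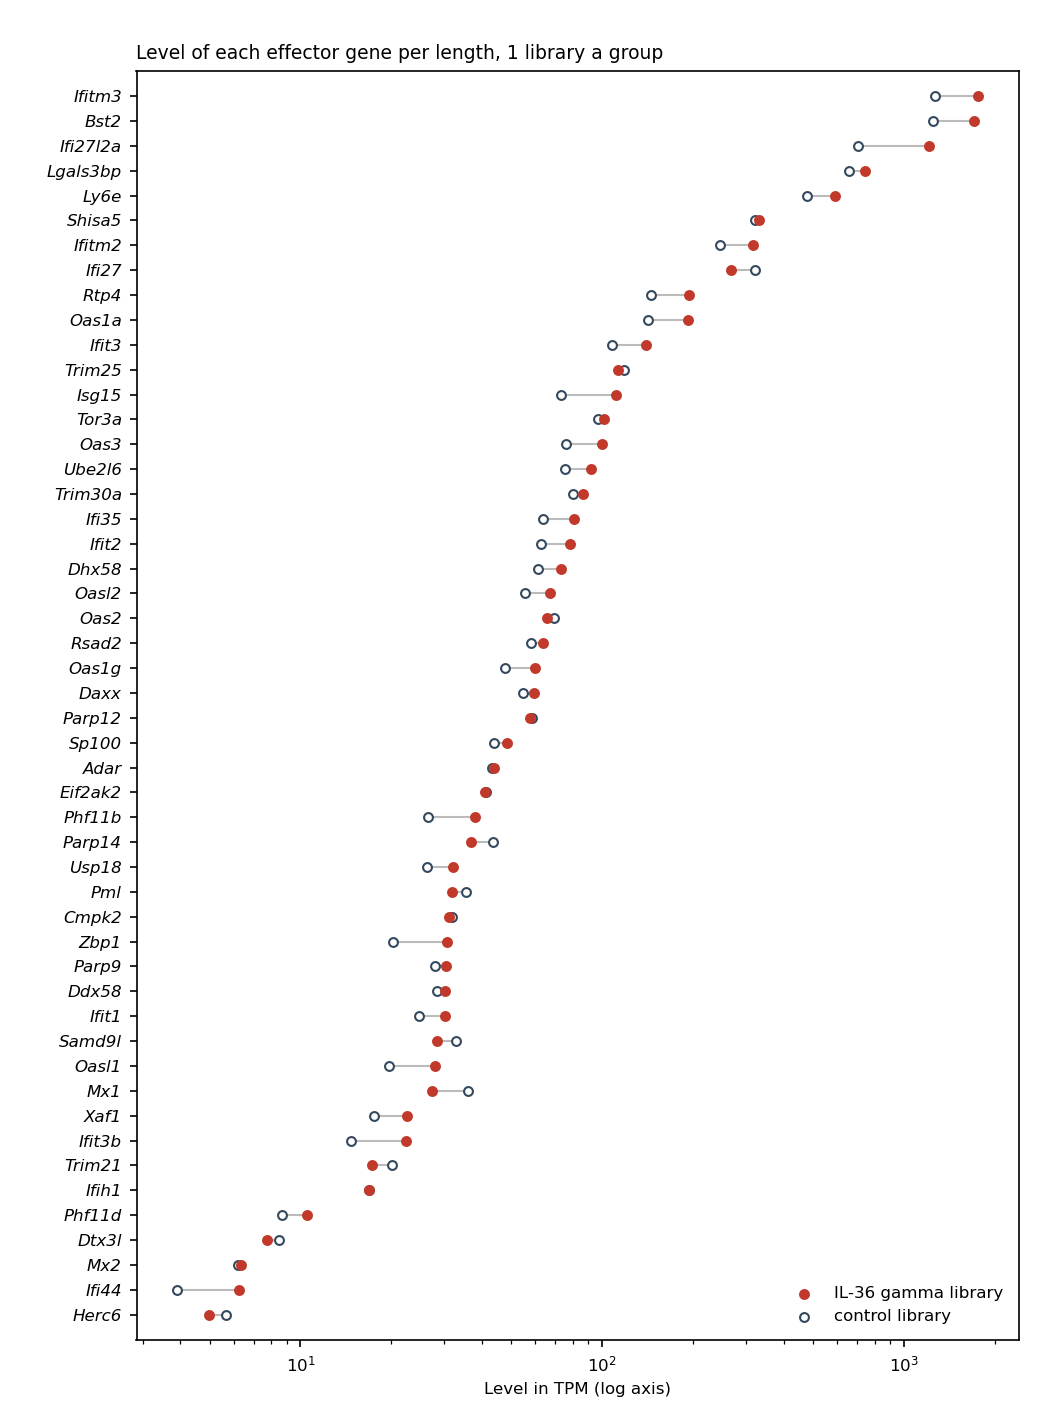
Level of each gene in TPM (log axis), with filled points for the IL-36 gamma library and open points for the control library, ordered by the IL-36 gamma level. The order runs from Ifitm3, at 1768 TPM with IL-36 gamma and 1268 TPM in the control, to Herc6, at 4.96 TPM with IL-36 gamma and 5.68 TPM in the control, and most filled points lie to the right of the open ones.

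In the ISG15 pathway, the modifier itself, its conjugating enzyme and its protease were higher with IL-36 gamma, while the intervals of the 2 ligases included 1. Isg15 (ENSMUSG00000035692, chromosome 4, 156199424 to 156200818, mm10) encodes the ubiquitin-like protein that is attached to other proteins. It had 535 counts with IL-36 gamma and 340 in the control, a ratio of 1.65 (1.44 to 1.90). Its promoter is shown because it holds a run of 3 overlapping matches to the core of the response element. The window comes from RefSeq on GRCm38.p6, covers 250 bases before to 50 bases after the transcript start (minus strand, chr4:156200769-156201068), and has every match to the core in capitals. The core was searched on either strand as GAAA, any 2 bases and GAAA again.
Isg15: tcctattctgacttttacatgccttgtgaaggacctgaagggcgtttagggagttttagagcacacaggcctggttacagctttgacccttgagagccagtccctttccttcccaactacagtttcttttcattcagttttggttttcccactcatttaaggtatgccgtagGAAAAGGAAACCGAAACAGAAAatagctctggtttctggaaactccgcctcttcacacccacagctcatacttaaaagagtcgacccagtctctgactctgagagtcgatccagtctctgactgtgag
The run lies 78 to 57 bases before the start. Ube2l6, the enzyme that carries ISG15 to its substrates, had 1169 counts with IL-36 gamma and 928 in the control, a ratio of 1.32 (1.21 to 1.44). Usp18, the protease that removes ISG15 and also restrains the interferon receptor, had 568 counts with IL-36 gamma and 451 in the control, a ratio of 1.32 (1.17 to 1.5). Herc6, the main ISG15 ligase of mice, had 293 counts with IL-36 gamma and 326 in the control, and its ratio of 0.943 (0.803 to 1.11) included 1. Of the exonic bases of Herc6, 13.7% also belong to the annotated gene Gm45193, and how reads there were assigned is not known. Trim25, a ligase that acts on the RNA sensor Ddx58, had 4140 counts with IL-36 gamma and 4212 in the control, a ratio of 1.03 (0.988 to 1.08). The median log2 ratio of the 5 genes was 0.40.

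All 4 IFIT genes were higher with IL-36 gamma, with intervals above 1, against 20.2% of all genes measured. The IFIT genes encode proteins that bind viral RNA or its translation machinery and lie together on chromosome 19, from 34550694 to 34650009. Ifit3b had 284 counts with IL-36 gamma and 181 in the control, a ratio of 1.65 (1.36 to 2.0). Its near copy Ifit3 had 1556 counts with IL-36 gamma and 1161 in the control, a ratio of 1.41 (1.3 to 1.52). The promoters of this pair are shown because they share both matches to the response element core, again in capitals (plus strand, chr19:34607707-34608006 for Ifit3b and chr19:34583279-34583578 for Ifit3).
Ifit3b: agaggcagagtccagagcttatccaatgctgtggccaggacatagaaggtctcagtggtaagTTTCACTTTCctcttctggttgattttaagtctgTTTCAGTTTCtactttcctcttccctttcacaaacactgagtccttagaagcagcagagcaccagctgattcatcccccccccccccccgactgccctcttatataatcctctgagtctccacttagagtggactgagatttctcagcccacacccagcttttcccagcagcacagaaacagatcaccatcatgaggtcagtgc
Ifit3: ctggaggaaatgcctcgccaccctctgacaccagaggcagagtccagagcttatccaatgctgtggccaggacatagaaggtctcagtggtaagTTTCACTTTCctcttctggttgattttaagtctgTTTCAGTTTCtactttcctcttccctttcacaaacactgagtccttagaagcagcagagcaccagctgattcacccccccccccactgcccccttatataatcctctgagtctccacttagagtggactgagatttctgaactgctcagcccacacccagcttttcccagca
The windows share an unbroken run of 169 bases that contains both matches. Of the 50-base windows of the longest Ifit3 transcript, 51.2% also occur in transcripts of Ifit3b, so the split of counts between the pair is uncertain. Ifit2 had 1959 counts with IL-36 gamma and 1518 in the control, a ratio of 1.35 (1.27 to 1.45). Ifit1, which binds RNA that lacks a host cap mark, had 507 counts with IL-36 gamma and 406 in the control, a ratio of 1.31 (1.15 to 1.5).

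Of the 6 OAS genes, 5 had an interval above 1, against 20.2% of all genes measured, and Oas2 was the exception. Most OAS enzymes make short oligoadenylates when they bind double-stranded RNA. Oas1a had 2305 counts with IL-36 gamma and 1649 in the control, a ratio of 1.47 (1.38 to 1.56), and Oas1g had 891 counts with IL-36 gamma and 690 in the control, a ratio of 1.36 (1.23 to 1.5). Their promoters carry overlapping response element matches directly before the start and are shown for that reason (minus strand, chr5:120907476-120907775 for Oas1a and chr5:120887564-120887863 for Oas1g).
Oas1a: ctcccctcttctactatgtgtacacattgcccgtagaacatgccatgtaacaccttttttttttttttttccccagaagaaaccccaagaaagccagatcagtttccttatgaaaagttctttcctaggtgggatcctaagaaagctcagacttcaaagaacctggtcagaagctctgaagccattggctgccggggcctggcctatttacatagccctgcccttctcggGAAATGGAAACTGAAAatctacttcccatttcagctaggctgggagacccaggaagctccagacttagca
Oas1g: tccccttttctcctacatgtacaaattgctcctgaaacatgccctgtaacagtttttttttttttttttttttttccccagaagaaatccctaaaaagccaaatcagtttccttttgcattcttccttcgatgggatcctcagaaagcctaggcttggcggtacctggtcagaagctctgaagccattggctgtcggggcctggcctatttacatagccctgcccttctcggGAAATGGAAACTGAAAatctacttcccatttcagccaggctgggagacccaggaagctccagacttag
A run of 73 bases around the matches is the same in both. Of the 50-base windows of the longest Oas1a transcript, 57.6% occur in Oas1g transcripts, so single values of this pair are uncertain too. Oas3, the largest enzyme of the family, had 4497 counts with IL-36 gamma and 3304 in the control, a ratio of 1.43 (1.37 to 1.49). Its neighbour Oas2 had 1860 counts with IL-36 gamma and 1902 in the control, and its ratio of 1.03 (0.962 to 1.09) included 1. The intervals of Oas2 and Oas3 did not overlap, although both genes lie in the same cluster on chromosome 5, between 120730333 and 120907521. On the same chromosome, Oasl1, which in mice restrains production of Irf7 protein, had 463 counts with IL-36 gamma and 316 in the control, a ratio of 1.54 (1.33 to 1.78). Oasl2 had 2720 counts with IL-36 gamma and 2180 in the control, a ratio of 1.31 (1.24 to 1.39).

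Among the nucleic acid sensors, Zbp1 stood highest and Ifih1 was not separated from a ratio of 1. Zbp1 (ENSMUSG00000027514, chromosome 2, 173206612 to 173218923), which recognises left-handed nucleic acid and can start necroptosis, had 689 counts with IL-36 gamma and 440 in the control. Its ratio was 1.64 (1.46 to 1.86). Dhx58, a helicase that modulates the other RNA sensors, had 1524 counts with IL-36 gamma and 1234 in the control, a ratio of 1.3 (1.20 to 1.40). Ddx58, the sensor of RNA with triphosphate ends, had 1348 counts with IL-36 gamma and 1230 in the control, a ratio of 1.15 (1.06 to 1.24). Ifih1, the sensor of long double-stranded RNA, had 876 counts with IL-36 gamma and 851 in the control, a ratio of 1.08 (0.982 to 1.19). The editing enzyme and the kinase that bind double-stranded RNA had ratios close to 1. Adar, which edits adenosine in such RNA, had 2266 counts with IL-36 gamma and 2170 in the control, a ratio of 1.10 (1.03 to 1.16). Eif2ak2, the kinase that halts translation, had 1331 counts with IL-36 gamma and 1305 in the control, a ratio of 1.07 (0.991 to 1.16).

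The group of GTPases and other intracellular effectors was divided. Rtp4 had 2622 counts with IL-36 gamma and 1918 in the control, a ratio of 1.43 (1.35 to 1.52). Of the exonic bases of Rtp4, 13.9% also belong to the annotated gene Gm45338, and how reads there were assigned is not known. Rsad2, which makes a chain-terminating nucleotide, had 1761 counts with IL-36 gamma and 1554 in the control, a ratio of 1.19 (1.11 to 1.27). Its neighbour on chromosome 12, Cmpk2, a mitochondrial nucleotide kinase, had 821 counts with IL-36 gamma and 815 in the control. The ratio of Cmpk2 was 1.06 (0.959 to 1.17). Samd9l, a restriction factor for poxviruses, had 980 counts with IL-36 gamma and 1099 in the control, a ratio of 0.936 (0.858 to 1.02).

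Mx1 (ENSMUSG00000000386, chromosome 16, 97447035 to 97462907) had the lowest ratio of all members. It encodes a GTPase that blocks influenza virus, and the gene is known to be defective in most laboratory strains, C57BL/6 among them. Mx1 had 657 counts with IL-36 gamma and 838 in the control, a ratio of 0.823 (0.742 to 0.912). The adjacent Mx2, annotated as a polymorphic pseudogene, had 146 counts with IL-36 gamma and 138 in the control, a ratio of 1.11 (0.874 to 1.41).

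All 5 genes for membrane proteins were higher with IL-36 gamma, and 4 of them were more than 25% above 1 over the whole interval. Over all genes measured, 20.2% had an interval above 1 and 1.52% an interval more than 25% above it. All 5 are abundant, and in the group of genes with the highest control level per length 41.6% had an interval above 1. Ifitm3, which blocks fusion of viruses in endosomes, had 7619 counts with IL-36 gamma and 5309 in the control, a ratio of 1.51 (1.45 to 1.56). Ifitm2, its neighbour on chromosome 7, had 1320 counts with IL-36 gamma and 994 in the control, a ratio of 1.39 (1.28 to 1.51). Of the exonic bases of Ifitm2, 40.9% also belong to the annotated gene Gm45717, and how reads there were assigned is not known. Bst2, which tethers budding virus to the cell surface, had 9805 counts with IL-36 gamma and 6986 in the control, a ratio of 1.47 (1.43 to 1.52). The Bst2 promoter is shown for its overlapping pair of matches well before the start (minus strand, chr8:71537423-71537722).
Bst2: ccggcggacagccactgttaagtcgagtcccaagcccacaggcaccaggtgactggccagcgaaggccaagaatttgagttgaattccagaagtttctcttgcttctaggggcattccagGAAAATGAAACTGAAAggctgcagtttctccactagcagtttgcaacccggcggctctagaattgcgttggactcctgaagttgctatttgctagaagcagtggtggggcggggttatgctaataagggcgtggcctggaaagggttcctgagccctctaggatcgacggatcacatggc
Ly6e, a surface protein that limits entry of coronaviruses, had 14275 counts with IL-36 gamma and 11172 in the control, a ratio of 1.34 (1.31 to 1.37). Shisa5, a protein of the endoplasmic reticulum, had 6944 counts with IL-36 gamma and 6535 in the control, and its ratio of 1.12 (1.08 to 1.15) was the lowest of the 5.

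The pair of IFI27 genes went opposite ways. Ifi27l2a (ENSMUSG00000079017, chromosome 12, 103442167 to 103443680), which encodes a small hydrophobic protein, had 3555 counts with IL-36 gamma and 2015 in the control. Its ratio of 1.85 (1.75 to 1.96) was the highest of all members. Ifi27, which encodes a related protein and lies within the same 9470 bases, had 2491 counts with IL-36 gamma and 2916 in the control, a ratio of 0.897 (0.850 to 0.946). Of the 50-base windows of the Ifi27l2a transcript, 0.483% occur in another gene. Ifi44 had 244 counts with IL-36 gamma and 147 in the control, a ratio of 1.74 (1.41 to 2.15), the second highest. Ifi35, which pairs with the protein of Nmi, had 887 counts with IL-36 gamma and 679 in the control, a ratio of 1.37 (1.24 to 1.52).

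The ADP-ribosyltransferase group and the TRIM ligases had mixed values. Parp9 had 938 counts with IL-36 gamma and 839 in the control, a ratio of 1.17 (1.07 to 1.29). Its partner Dtx3l, a ubiquitin ligase that works in a complex with Parp9, had 282 counts with IL-36 gamma and 301 in the control, a ratio of 0.983 (0.833 to 1.16). The genes overlap over 458 exonic bases on opposite strands. Parp14 had 2168 counts with IL-36 gamma and 2506 in the control, a ratio of 0.908 (0.857 to 0.962). Parp12 had 1462 counts with IL-36 gamma and 1442 in the control, a ratio of 1.06 (0.989 to 1.15). Trim30a, a mouse ligase that restrains signalling from Toll-like receptors, had 2260 counts with IL-36 gamma and 2028 in the control, a ratio of 1.17 (1.10 to 1.24). Trim21, a cytosolic receptor for antibody, had 407 counts with IL-36 gamma and 460 in the control, a ratio of 0.929 (0.811 to 1.06).

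Of the nuclear proteins, Phf11b and its neighbour Phf11d, which carry a PHD finger, were higher. Phf11b had 286 counts with IL-36 gamma and 194 in the control, a ratio of 1.55 (1.28 to 1.87), and Phf11d had 301 counts with IL-36 gamma and 242 in the control, a ratio of 1.31 (1.10 to 1.55). Of the 50-base windows of Phf11b, 47.0% occur in other genes, so its value is uncertain. Of the components of nuclear bodies, Sp100 (ratio 1.19, 2319 counts with IL-36 gamma and 2044 in the control) and Daxx (ratio 1.18, 1193 counts with IL-36 gamma and 1065 in the control) were higher with IL-36 gamma. Pml, the scaffold of these bodies, had 1124 counts with IL-36 gamma and 1213 in the control, a ratio of 0.973 (0.896 to 1.06). The remaining members were all above 1. Xaf1, which binds an inhibitor of apoptosis, had 673 counts with IL-36 gamma and 509 in the control, a ratio of 1.39 (1.24 to 1.56). Lgals3bp, a secreted galectin-binding protein, had 13459 counts with IL-36 gamma and 11534 in the control, a ratio of 1.22 (1.19 to 1.26). Tor3a, an ATPase of the endoplasmic reticulum, had 2507 counts with IL-36 gamma and 2325 in the control, a ratio of 1.13 (1.07 to 1.20).

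Members that lie next to each other did not always move alike. In 9 neighbourhoods, each with gaps of at most 500000 bases, 23 members were found. The IFIT cluster ran from a ratio of 1.31 to 1.65 and the Ifitm2 and Ifitm3 pair from 1.39 to 1.51. The cluster of Parp14, Dtx3l and Parp9 on chromosome 16 ran from 0.908 to 1.17, with Parp14 wholly below 1 and Parp9 wholly above it.

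Among the effector genes, shorter genes had the higher ratios, a direction that the genes as a whole showed as well. Across the 50 members the log2 ratio and the exon length had a Spearman correlation of -0.56, and across 14373 genes of all kinds it was -0.26. These are correlations across genes of the same 2 libraries, and genes are not replicates. Genes were divided by exon length into 3 equal groups. Among the shortest, 16 members had a median log2 ratio of 0.54, against 0.10 for all 4791 genes. In the middle group, 21 members had 0.23, against 0.04 for all genes. Among the longest, 13 members had 0.11, against -0.08 for all genes. The members' median was thus above that of all genes in each group. With the trend on length removed, 38 members had an interval above 1, all 35 of the earlier ones among them, with Ifih1, Eif2ak2 and Trim25 added, against 18.3% of all genes treated the same way. Parp14 then had a ratio of 0.977 and was no longer below 1. The interval lay more than 25% above 1 for 13 members, without Ifit2, Ifit3, Ifitm2 and Phf11b and with Oasl2, against 1.15% of all genes. The part of length in the result was not tested further.

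**Figure D3:**
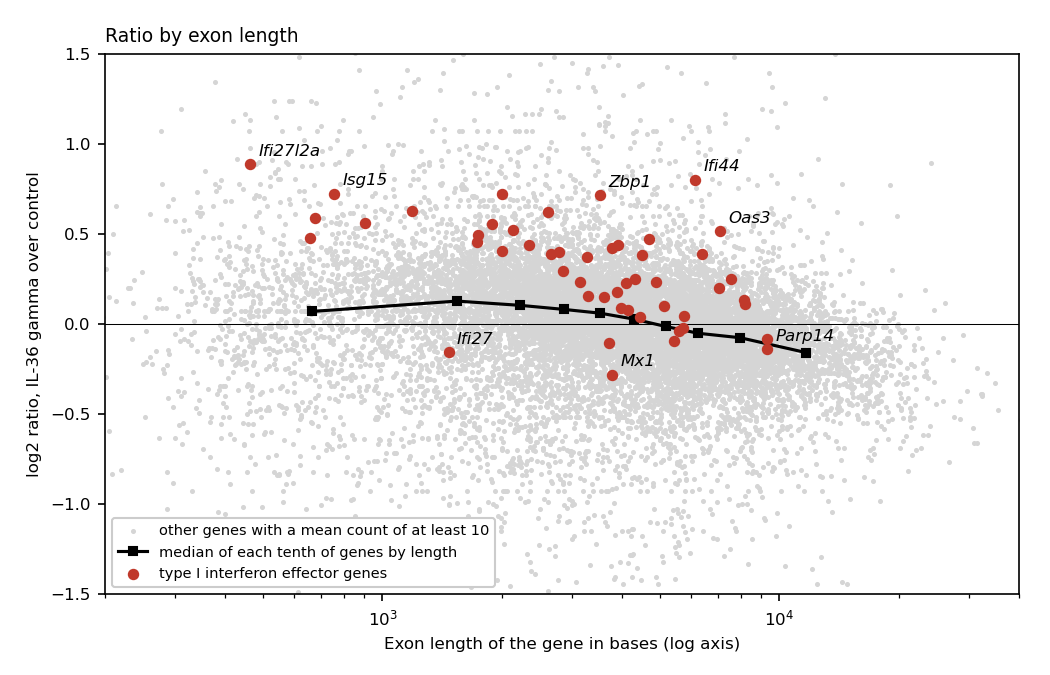
Log2 ratio, IL-36 gamma over control, against exon length in bases (log axis). Red points are the 50 effector genes, grey points the other genes measured, and black squares the median of each of 10 equal groups of genes by length. Most red points lie above the black line, and both fall with length. Of the 14373 genes, 183 lie outside the axes.

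The response element core was common in the promoters of these genes. Promoter windows from RefSeq were at hand for 37 members. At least 1 window of 18 of these (48.6%) held the core on either strand, against 3.99% of 27025 genes with a window. The same core followed by CT, a stricter form, was found in 10 of the 37 (27.0%), against 0.303% of all genes. The 18 members with the core had a median log2 ratio of 0.46 and the 19 without it 0.25. Those with the core were also shorter, with a median exon length of 2498 bases against 4689. Members without an exact match could also be high. Ifi44, with a ratio of 1.74, had no exact match in its window (minus strand, chr3:151749861-151750160), which is printed for that reason. The window does hold tttcagtttt and ttttcgtttc, each of which differs by 1 base from the core read on the opposite strand. Such near matches were not counted for any gene.
Ifi44: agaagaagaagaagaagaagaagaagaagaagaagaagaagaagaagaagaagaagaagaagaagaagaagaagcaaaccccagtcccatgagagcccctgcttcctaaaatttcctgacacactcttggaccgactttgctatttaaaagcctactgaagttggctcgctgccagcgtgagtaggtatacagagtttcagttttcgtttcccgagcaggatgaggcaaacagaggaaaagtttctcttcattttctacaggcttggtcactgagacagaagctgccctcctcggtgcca
A match is a match of letters and says nothing about binding in these cells. The members with no window were Dhx58, Ifi27, Ifi27l2a, Ly6e, Mx1, Mx2, Oas2, Parp14, Parp9, Rtp4, Tor3a, Usp18 and Zbp1.

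**Figure D4:**
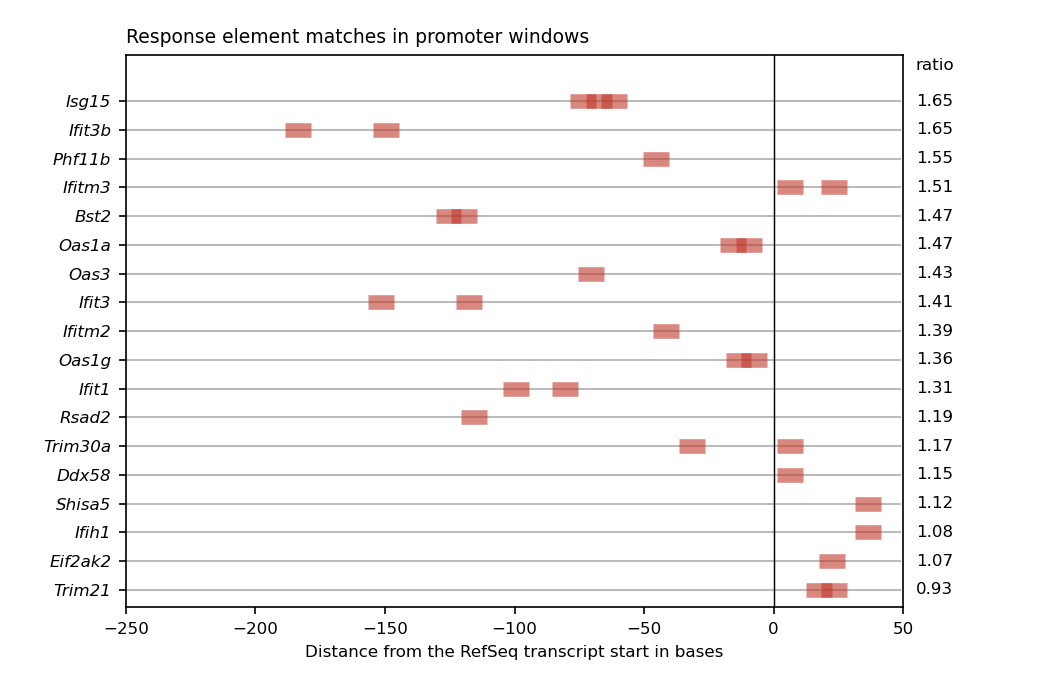
Position of each match to the response element core (red) in the promoter windows of 18 members, in bases from the RefSeq transcript start at 0, ordered by the ratio printed at the right. Isg15 carries 3 overlapping matches 78 to 57 bases before the start. Trim30a has 2 windows, each drawn from its own start. Shisa5 has several windows, and the match drawn is from the only one that held the core.

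Upstream of these genes, type I interferon transcripts were at or near 0 in both libraries. Of 17 type I interferon genes, 15 had 0 counts in both, Ifnb1 among them. Ifnz had 1 count with IL-36 gamma and 0 in the control, and Ifnk had 0 counts with IL-36 gamma and 4 in the control. At a count of 0, the level may be as high as 0.177 CPM, a count scaled to library size, with IL-36 gamma and 0.169 CPM in the control. This limit holds only where reads of a gene could be assigned to it. Sequence shared among these 17 genes was not checked. The receptors and the signal chain were measured in full. Of these 12 genes, 7 had an interval above 1 and 3 below it, against 20.2% and 16.5% of all genes measured. The median log2 ratio of the 12 was 0.10. Socs3, a feedback inhibitor of cytokine receptors, had 1318 counts with IL-36 gamma and 918 in the control, a ratio of 1.51 (1.38 to 1.64). The receptor chains Ifnar1 (ratio 0.940) and Ifngr1 (ratio 0.881) and the kinase Jak1 (ratio 0.946) were the 3 below 1. The partner chains lay nearest the middle of this list. Ifnar2 had 1635 counts with IL-36 gamma and 1591 in the control, a ratio of 1.08 (1.01 to 1.16). Ifngr2 had 2321 counts with IL-36 gamma and 2283 in the control, a ratio of 1.07 (1.01 to 1.13).

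The genes that lead from sensing to interferon had a median close to that of all genes. Of 17 measured, 3 had an interval above 1 and 3 below it, against 20.2% and 16.5% of all genes measured. The median log2 ratio of the 17 was -0.03. Irf7, the transcription factor that amplifies interferon production and is itself induced by interferon, had the highest ratio of this list. It had 5682 counts with IL-36 gamma and 2889 in the control, a ratio of 2.06 (1.97 to 2.16). Irf1 (912 counts with IL-36 gamma and 979 in the control, ratio 0.978) and Tlr9 (1233 counts with IL-36 gamma and 1365 in the control, ratio 0.948) lay nearest the middle of this list.

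A further list of genes known to be induced by interferon had a smaller median ratio than the members. Of its 38 measured genes, 15 had an interval above 1 and 2 below it, against 20.2% and 16.5% of all genes measured. The median log2 ratio of the 38 was 0.11. In this list, the genes more than 25% above 1 over the whole interval were Ifitm1, Psmb8, Psmb9, Lgals9 and B2m. Ifitm1, a relative of Ifitm2 and Ifitm3, had 166 counts with IL-36 gamma and 87 in the control, a ratio of 2.0 (1.54 to 2.63). The immunoproteasome gene Psmb8 (ratio 1.45), its partner Psmb9 (1.38), the galectin gene Lgals9 (1.37) and the class I light chain gene B2m (1.36) followed. Trim12c (773 counts with IL-36 gamma and 756 in the control, ratio 1.07) and Trafd1 (3336 counts with IL-36 gamma and 3247 in the control, ratio 1.08) lay at the middle of the list. The members and lists were chosen with earlier results of these data known, and whether the lists differ from each other was not tested.

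**Figure D5:**
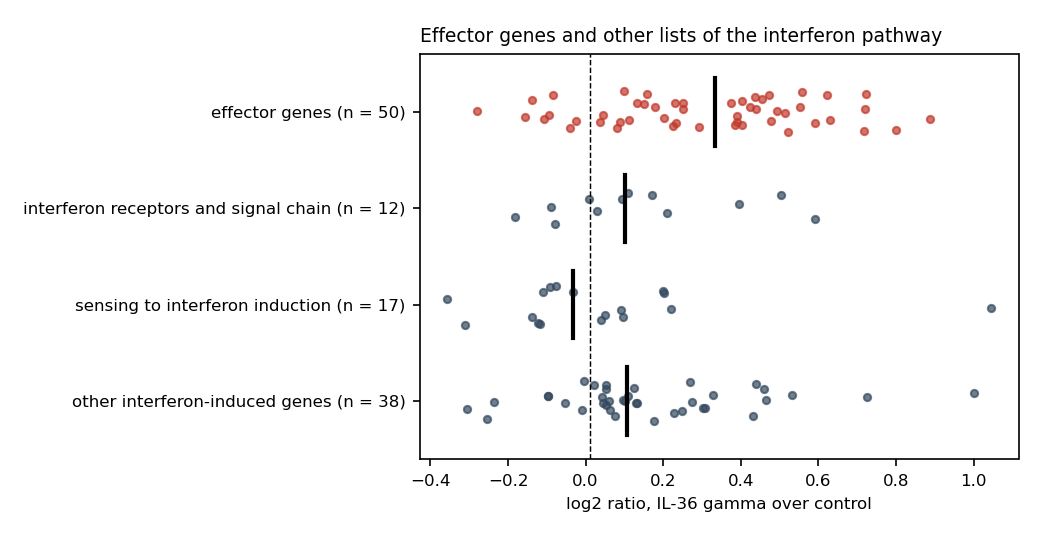
Log2 ratio, IL-36 gamma over control, of each measured gene in the effector list (red) and in 3 other lists of the interferon pathway (dark blue), with a black bar at each median and a dashed line at the median of all genes, 0.01. The medians are 0.33 for the effector genes, 0.10 for receptors and signal chain, -0.03 for sensing to interferon induction and 0.11 for other interferon-induced genes. Vertical scatter within a row has no meaning.

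The label of the cells was checked against marker genes. All 10 macrophage markers were measured, with summed levels of 30388 CPM with IL-36 gamma and 30541 CPM in the control. For the counts of markers below, the shares over all genes measured were 20.2% with an interval above 1 and 16.5% below 1. Markers of monocytes and neutrophils moved in the same direction as the effector genes. The 7 monocyte markers summed to 190 CPM with IL-36 gamma and 124 CPM in the control, and 5 had an interval above 1. The 10 neutrophil markers summed to 365 CPM with IL-36 gamma and 274 CPM in the control, and 6 had an interval above 1. Their part in the result was not tested. Of 10 markers of plasmacytoid dendritic cells, known as strong producers of interferon, 4 were at 0 in both libraries, Siglech among them. The sums of the 10 were 68.4 CPM with IL-36 gamma and 71.6 CPM in the control. Most of each sum was Tcf4, with 52.1 CPM with IL-36 gamma and 59.9 CPM in the control (ratio 0.871). Of the 4 that reached a mean of 10 counts, 1 had an interval above 1 and 1 below it, with a median log2 ratio of 0.51. The one above, Cox6a2, was higher with IL-36 gamma, with 125 counts against 56 in the control, a ratio of 2.34 (1.70 to 3.27). The 8 conventional dendritic cell markers summed to 2.13 CPM with IL-36 gamma and 2.53 CPM in the control. The 10 lymphocyte markers summed to 8.09 CPM with IL-36 gamma and 14.1 CPM in the control, with Cd3e at 0 in both. Of these sums, Cd4 was 7.56 CPM with IL-36 gamma and 13.1 CPM in the control (ratio 0.579). The 7 stromal markers summed to 43.1 CPM with IL-36 gamma and 40.5 CPM in the control, of which the endothelial gene Pecam1 was 36.4 CPM with IL-36 gamma and 28.6 CPM in the control (ratio 1.27). The 3 collagen genes were wholly below 1, with ratios of 0.686 for Col1a1, 0.367 for Col1a2 and 0.442 for Col3a1. The part of these markers in the result was not tested either.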

How the data were processed

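Per the submitters' processing notes, the build was mm10 and the tools were STAR 2.5.0a, HTSeq, Trim Galore 0.6.1 and FastQC 0.11.8. The settings and annotation of HTSeq, strand included, were not given in the sources used here. Deposited by the authors were unnormalized read counts for each Ensembl gene. The 5 counter rows that name no gene were left out of library sizes. Of all rows, reads assigned to no gene made up 46.3% with IL-36 gamma and 47.2% in the control. Since the strand setting is unknown, reads of genes that overlap on opposite strands cannot be told apart, which touches 9 members.

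Symbols, positions and exon lengths came from GENCODE M21, which matched 54409 of 54446 IDs. Counts were scaled with TMM factors of edgeR 4.0.16 in R 4.3.3 (0.981 for IL-36 gamma and 1.02 for the control). The call rules were a counting interval wholly above 1, more than 25% above 1, below 1 or below 0.8, for genes whose mean reached 10 counts. No count test was run, because 1 library a group leaves no residual degrees of freedom. The limit for a count of 0 was 3 counts. Intervals and limits cover counting error only, since copies made by polymerase chain reaction are not independent molecules.

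The members and lists were chosen with earlier results of these data known. The rule named members more than 25% above 1 or below 1, at least 2 of each role, paralog pairs and the highest and lowest levels. Of each pathway list it named genes past the size rule and those nearest the median. The other members, Ifnar1, Ifngr1, Jak1, Ifnb1, Ifnk, Ifnz and the marker genes were named after their values were seen. Alternatives were other scalings (DESeq2 1.42.0 among them), trends on length, GC content or expression removed, other filters, protein-coding genes only, a 99% interval, a prior count of 2 and the mean. Computations used Python 3.11.15, scipy 1.17.1 and statsmodels 0.14.6.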

Additional observations from a re-analysis of the deposited data

How the results depend on the processing

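No paired analysis was possible because each group had 1 library, and leaving out a library was not possible for the same reason. Over the alternatives listed above, the number of members with an interval above 1 ran from 29 to 38. The 29 were of the 41 members without exon overlap on the opposite strand, against 21.4% of all such genes. The 38 were of 50 with the length trend removed, against 18.3% of all genes. The number below 1 ran from 2, with the length trend removed, to 4, with total counts, against 14.3% and 22.4% of all genes. Under every alternative 0 members fell below 0.8, against between 1.41% and 3.46% of all genes. Between 13 and 16 members lay more than 25% above 1. The 13 came under scaling by total counts, against 1.08% of all genes, and with the length trend removed, against 1.15%. The median log2 ratio of the members ran from 0.26, with the expression trend removed, to 0.38, without the overlapped genes. Scaling by total counts changed the background to 14.4% of all genes above 1 and 22.4% below 1, against 20.2% and 16.5% with TMM, and placed 34 members above 1 and 4 below. Of 540 ratios of single members under an alternative, 515 lay inside the main interval, 25 outside it, and 0 called ratios changed direction. Depth limits the least abundant members most. The interval of Mx2, with 146 counts with IL-36 gamma and 138 in the control, spans 0.874 to 1.41.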

Other observations

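The position of the response element core differed among the 18 members whose promoter window held it. In 12 of them a match lay before the transcript start. All 12 had a counting interval above 1, against 70% of all 50 members and 20.2% of all genes measured. The median log2 ratio of the 12 was 0.50. In the other 6 (Ddx58, Eif2ak2, Ifih1, Ifitm3, Shisa5 and Trim21) the matches lay only after the start. Shisa5 has several windows, and only the one at chr9:109054616-109054915 held a match. Its window at the first start of the gene held none. Of the 6 genes, 3 had an interval above 1, and the median log2 ratio of the 6 was 0.13, with Ifitm3 the highest at a ratio of 1.51. The median exon length was 1942 bases in the first set and 4414 bases in the second. The split was made after the values were seen, was not tested, and rests on the transcript starts that RefSeq gives.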
